A study of Xenopus laevis with 72 samples.

Results

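The genes described here encode homeodomain transcription factors of the Spemann organizer, the dorsal signalling centre of the amphibian embryo. They are goosecoid (gsc), siamois (sia1), its sister gene twin (sia2), not, otx2 and lhx1. Entries were chosen by gene symbol, homeologs kept apart, which gave 10 of the 39668 gene entries with expression values in Xenopus laevis embryos: gsc.L, gsc.S, sia1.L, sia2.S, not.L, not.S, otx2.L, otx2.S, lhx1.L and lhx1.S. The suffixes L and S mark the long and short subgenomes of this allotetraploid frog. The choice was made with earlier results of these data known, and gsc.S, sia1.L and not.S are taken as selected on lower levels in knockdown embryos at 7.5 hours post fertilization (hpf). The knockdown values at 7.5 hpf are therefore given as a description without a test. The embryos of 5.5 and 6.5 hpf are different embryos and were tested, but they come from the same experiments. Which values led to the choice is not recorded, so the p-values at 5.5 and 6.5 hpf may not be free of it.

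Wild-type embryos of 1 cell received 9.2 nl of a 1 mM antisense morpholino that blocks translation of both homeologs of cxxc1 (Cxxc1 MO) or of kmt2b (Kmt2b MO), or of a standard control morpholino (Ctrl MO). A further group was not injected (NI Ctrl). Cxxc1 is a CpG-binding subunit of a histone H3 lysine 4 methyltransferase complex and Kmt2b is an H3 lysine 4 methyltransferase. RNA-seq libraries of total RNA were made from pools of 3 whole embryos at 5.5, 6.5 and 7.5 hpf, with 3 sets per group and time point in each of 2 independent experiments, each from a different frog, for 72 libraries in all. The sets of an experiment share their frog, so the spread between them may be technical. All p-values below take the sets as replicates. They rest largely on the spread between sets, and only 2 frogs stand behind them. A translation-blocking morpholino need not lower its target mRNA, so the injections were not checked here through the target mRNAs. The authors report lower Cxxc1 and Kmt2b protein in Western blots of knockdown embryos. They also report a partial rescue for Cxxc1, while a rescue for Kmt2b could not be done.

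In the early frog embryo, maternal β-catenin accumulates on the dorsal side and switches on siamois and twin as soon as the zygotic genome is transcribed. Siamois and Twin act with Nodal signalling to activate gsc and other organizer genes. Goosecoid is a repressor that keeps ventral genes out of the organizer, Not acts in the notochord precursor, and Otx2 and Lhx1 act in head and axial mesendoderm. The organizer is a small part of the embryo. In RNA of whole embryos, fewer organizer cells and less RNA per cell cannot be told apart. The authors report delayed development of both knockdowns, and whether the groups stood at the same stage was not tested.

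In the version 10.1 assembly, gsc.L lies on chromosome 8L (79337943 to 79340657) and gsc.S on 8S (20057701 to 20062187). The siamois entry sia1.L lies on 3L (153185304 to 153186993) and the twin entry sia2.S on 3S (127552980 to 127555072). The not homeologs lie on 1L (9997719 to 10000659) and 1S (2837785 to 2840015). The otx2 homeologs share chromosomes with gsc, on 8L (95776826 to 95783838) and 8S (6466178 to 6474324), and the lhx1 homeologs lie on 2L (63761818 to 63770971) and 2S (65454868 to 65466171). All 10 are annotated as protein-coding, and the coordinates span whole genes.

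Levels are given as TPM, a measure of each gene's share of all transcripts in a library, corrected for length, so levels can be set side by side between genes. Across libraries, 18133 to 20351 entries reached 1 TPM. Protein-coding genes held 47.9 to 88.4% of TPM, with the lowest shares at 7.5 hpf. All 12 maternal marker entries and all 19 blastula marker entries averaged over 1 TPM, whereas 1 of 20 entries for differentiated or adult cells did (tekt1.L), and the summed level of those 20 lay between 1.33 and 5.50 TPM in every library. Read depth is not given by TPM. Of the 10 members, 7 averaged at least 1 TPM in the libraries of each frog and entered the tests on log2(TPM + 1) (limma, Benjamini-Hochberg adjusted over 19544 genes, called at an adjusted p under 0.05). The entries otx2.L, lhx1.L and lhx1.S did not pass and are described by level only.

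**Figure D1:**
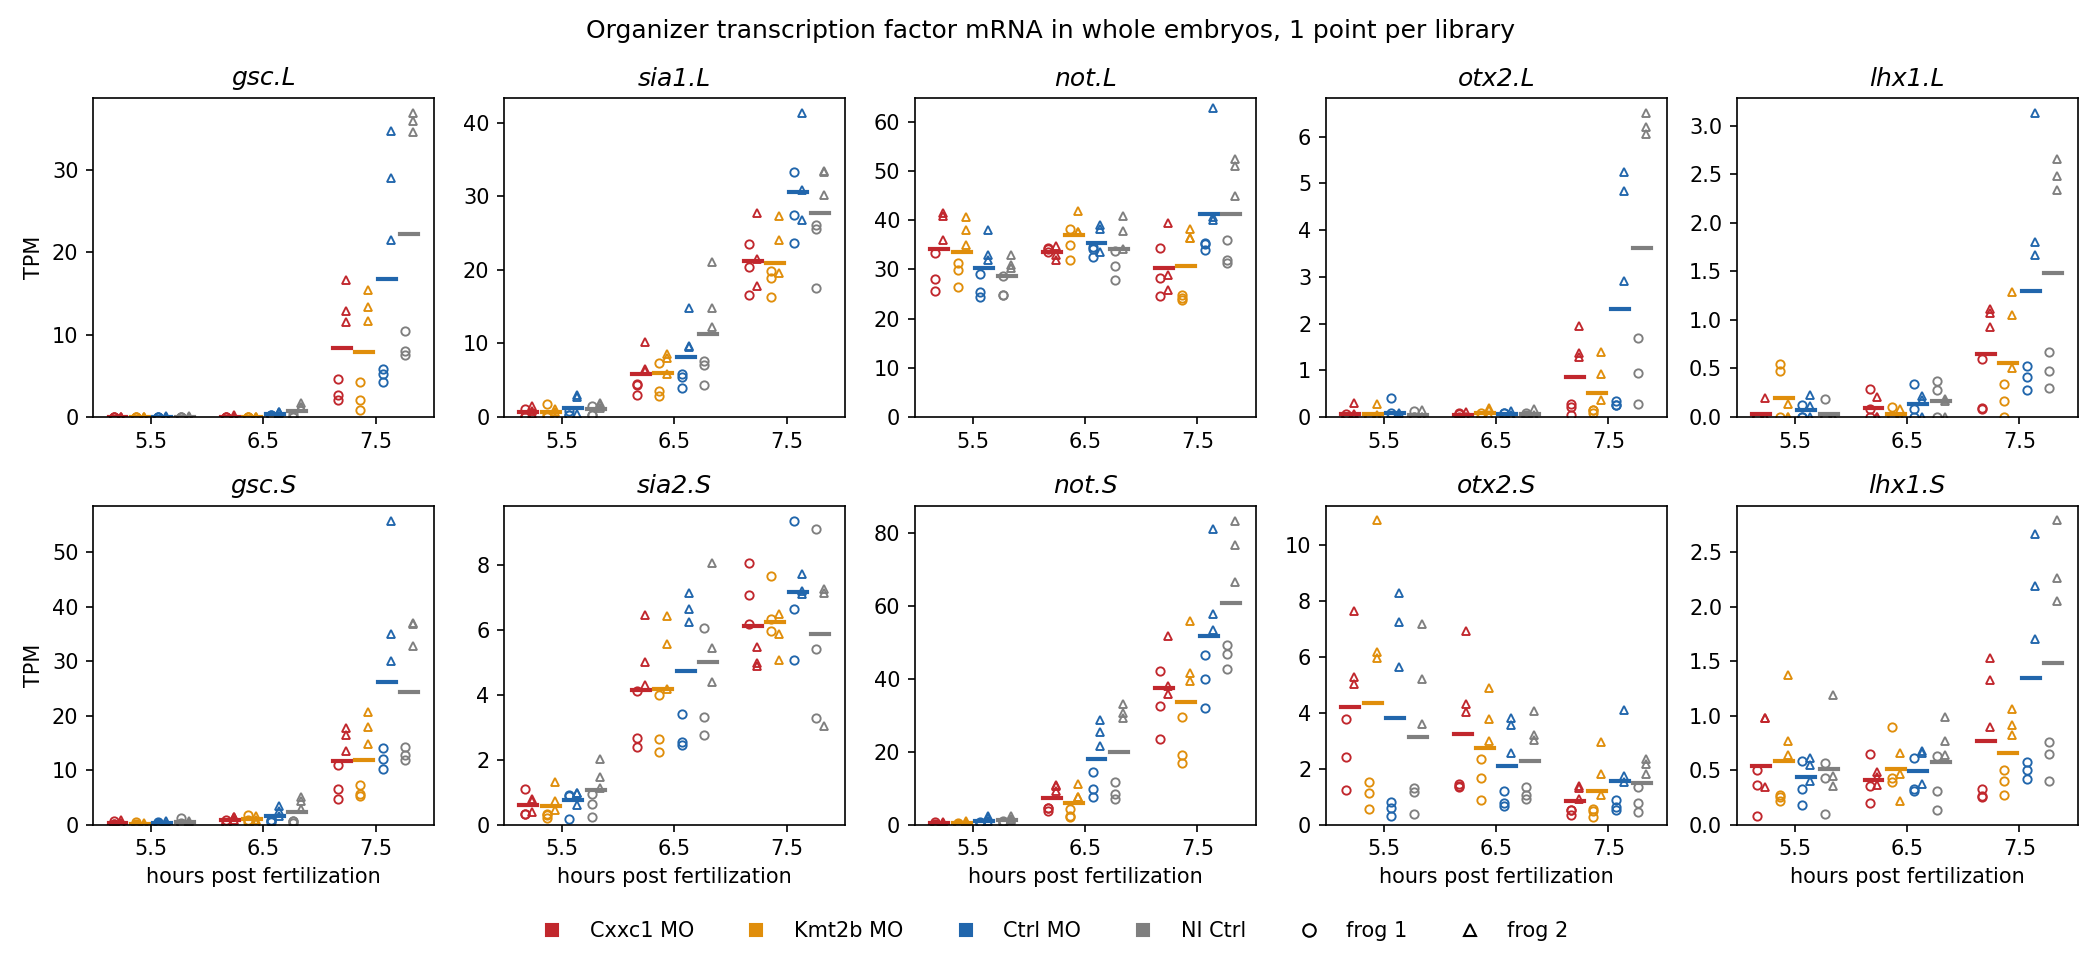
TPM of each of the 10 entries in every library, plotted against hours post fertilization (linear axes from 0, 1 scale per gene). Circles are frog 1, triangles frog 2, and bars the mean of the 6 libraries of a group. The not.S libraries of both knockdowns lie below those of Ctrl MO within each frog at 6.5 hpf, while not.L stays between 23.8 and 62.8 TPM at all times.

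The siamois and twin entries climbed in the first hour. In both knockdowns sia1.L was higher at each time than at the one before, and stood at 16.6 to 27.8 TPM with Cxxc1 MO and 16.3 to 27.4 TPM with Kmt2b MO at 7.5 hpf. In Ctrl MO embryos it stood at 0.205 to 2.99 TPM at 5.5 hpf, 3.95 to 14.8 TPM at 6.5 hpf and 23.6 to 41.3 TPM at 7.5 hpf. In NI Ctrl embryos the ranges were 0.206 to 1.94, 4.38 to 21.1 and 17.6 to 33.5 TPM at the same times. The libraries of the 3 time points did not overlap in Ctrl MO embryos. In NI Ctrl embryos those of 6.5 and 7.5 hpf overlapped between the frogs, but not within either frog. The twin entry sia2.S reached 2.24 to 8.07 TPM at 6.5 hpf over all groups and 3.03 to 9.38 TPM at 7.5 hpf, when every library had more sia1.L than any had of sia2.S.

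Goosecoid followed later. The entry gsc.S did not exceed 1.12 TPM in any library at 5.5 hpf, and at 6.5 hpf it was over 1 TPM in all frog 2 libraries of Ctrl MO (1.52, 3.42 and 2.46 TPM) and NI Ctrl embryos (4.26, 5.13 and 2.95 TPM). At 7.5 hpf gsc.S had 10.3, 12.0 and 14.0 TPM in Ctrl MO embryos of frog 1 and 34.9, 30.0 and 55.8 TPM in those of frog 2. The frogs did not overlap at 7.5 hpf in any of the 4 groups. Its homeolog gsc.L was listed at 0 in 22 of 24 libraries at 5.5 hpf, and at 7.5 hpf had 5.27, 4.21 and 5.89 TPM in Ctrl MO embryos of frog 1 against 29.1, 21.5 and 34.7 TPM in those of frog 2.

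The not homeologs differed from the start. The entry not.L was already at 24.4 to 41.4 TPM in all 24 libraries at 5.5 hpf, and at 27.7 to 41.8 TPM at 6.5 hpf. The entry not.S was between 0 and 2.38 TPM at 5.5 hpf and overtook not.L in the Ctrl MO means of both frogs by 7.5 hpf, with 39.5 and 64.0 TPM for not.S against 34.8 and 47.8 TPM for not.L. Summed over the pair, the S copy held 2.02 and 4.63% of not TPM in Ctrl MO embryos of frogs 1 and 2 at 5.5 hpf, 23.8 and 40.6% at 6.5 hpf, and 53.1 and 57.2% at 7.5 hpf. Homeologs are similar in sequence, so the division of reads between the copies is uncertain. At 5.5 hpf every library had more not.L than any had of not.S.

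The otx2 homeologs ran in opposite directions in frog 2. At 5.5 hpf, otx2.S in Ctrl MO embryos had 0.799, 0.607 and 0.309 TPM in frog 1 and 8.30, 7.25 and 5.65 TPM in frog 2. At 7.5 hpf, otx2.S in Ctrl MO embryos of frog 2 had 1.75, 1.53 and 4.11 TPM. The entry otx2.L did not exceed 0.408 TPM at 5.5 and 6.5 hpf in any library, and reached 4.83, 2.92 and 5.25 TPM in Ctrl MO and 6.05, 6.50 and 6.21 TPM in NI Ctrl embryos of frog 2 at 7.5 hpf, while frog 1 stayed at or under 1.69 TPM. The lhx1 entries were also low, with at most 1.37 TPM at 5.5 and 6.5 hpf, and at 7.5 hpf reached up to 3.13 TPM (lhx1.L) and 2.79 TPM (lhx1.S), the highest values being in frog 2. The S copy held 77.7 to 100% of otx2 TPM in every group and frog at 5.5 and 6.5 hpf. At 7.5 hpf in frog 2 it held 44.0% in Cxxc1 MO, 68.7% in Kmt2b MO, 36.3% in Ctrl MO and 25.2% in NI Ctrl embryos.

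The time steps were fitted over all 72 libraries at once. From 5.5 to 6.5 hpf, sia1.L, sia2.S and not.S rose in all 4 groups, and gsc.S rose in Ctrl MO (log2 change 0.87 ± 0.27 SE, adjusted p = 0.025) and NI Ctrl embryos (0.96 ± 0.27, adjusted p = 0.0098). Members called higher thus numbered 3 of 7 in Cxxc1 MO, 3 in Kmt2b MO, 4 in Ctrl MO and 4 in NI Ctrl embryos, against 5.61, 5.43, 8.17 and 8.47% of all genes tested. Among these 7, gsc.L in both frogs and gsc.S in frog 1 entered the tests only through their levels at the last time point. The choice of members is taken to have used those levels, so the counts are no fair comparison with all genes. For gsc.S the values in the knockdowns were 0.36 ± 0.27 in Cxxc1 MO (adjusted p = 0.30) and 0.74 ± 0.27 in Kmt2b MO (adjusted p = 0.080), and the difference between groups in this step was not tested. In frog 1 alone the gsc.S change was 0.36 in Ctrl MO (adjusted p = 0.49) and 0.064 in NI Ctrl embryos (adjusted p = 0.93), and in frog 2 alone it was 1.38 (adjusted p = 0.00014) and 1.86 (adjusted p = 1.3e-06), so the call rests on frog 2. It is also lost in Ctrl MO without set 2 or set 3 of frog 2 at 5.5 hpf (0.77, adjusted p = 0.086, and 0.76, adjusted p = 0.090) or at 6.5 hpf (0.76, adjusted p = 0.093, and 0.83, adjusted p = 0.055), and in NI Ctrl without set 2 of frog 2 at 5.5 hpf (0.81, adjusted p = 0.057) or at 6.5 hpf (0.80, adjusted p = 0.059).

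The largest of these steps was that of not.S. Its log2 change from 5.5 to 6.5 hpf was 2.48 ± 0.20 SE in Cxxc1 MO, 2.19 ± 0.20 in Kmt2b MO, 3.10 ± 0.20 in Ctrl MO and 3.08 ± 0.20 in NI Ctrl embryos. For sia1.L it was 2.03, 2.11, 2.12 and 2.46 (SE 0.24) and for sia2.S 1.65, 1.71, 1.64 and 1.53 (SE 0.21) in the same groups. The median gene moved by −0.15, −0.10, −0.08 and −0.05, a small shift beside these values.

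From 6.5 to 7.5 hpf the median of all genes tested fell by 0.79 in Cxxc1 MO, 0.79 in Kmt2b MO, 0.82 in Ctrl MO and 0.86 in NI Ctrl embryos on the log2 scale, beside the lower protein-coding share of TPM at 7.5 hpf. The steps of this hour are given without a test. They end in the 7.5 hpf libraries that the choice of members is taken to have used. In addition, gsc.L in both frogs and gsc.S in frog 1 passed the filter on low values only through their 7.5 hpf levels. For gsc.S the log2 changes were 2.75 in Cxxc1 MO, 2.59 in Kmt2b MO, 3.26 in Ctrl MO and 3.00 in NI Ctrl embryos (SE 0.27), and for gsc.L they were 2.88, 2.74, 3.30 and 3.55 (SE 0.31). For sia1.L they were 1.77, 1.70, 1.86 and 1.36 (SE 0.24) in the same order of groups, and for not.S 2.28, 2.41, 1.57 and 1.76 (SE 0.20). These 4 entries thus had positive values in every group while the median gene was negative.

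The other tested members moved less in that hour. For sia2.S the log2 changes were 0.50 in Cxxc1 MO, 0.54 in Kmt2b MO, 0.58 in Ctrl MO and 0.18 in NI Ctrl embryos (SE 0.21). In frog 2 alone, the sia2.S change was −0.0206 with Cxxc1 MO, 0.10 with Kmt2b MO and 0.12 with Ctrl MO. For otx2.S the values were −1.07, −0.80, −0.27 and −0.36 (SE 0.23), and for not.L −0.17, −0.29, 0.19 and 0.24 (SE 0.10), in the order Cxxc1 MO, Kmt2b MO, Ctrl MO and NI Ctrl. Once values were centred on the median gene, the not.L change turned to 0.45 with Cxxc1 MO and 0.33 with Kmt2b MO.

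Among the tested members, not.S was the only entry called between knockdown and Ctrl MO embryos at 6.5 hpf in the fits of both frogs. In frog 1, not.S had 3.75, 4.54 and 4.46 TPM with Cxxc1 MO and 1.96, 2.34 and 4.38 TPM with Kmt2b MO, against 7.50, 14.3 and 9.89 TPM in Ctrl MO and 8.31, 11.7 and 6.93 TPM in NI Ctrl embryos. In frog 2 it had 10.6, 9.19 and 10.9 TPM with Cxxc1 MO and 11.0, 7.61 and 7.54 TPM with Kmt2b MO, against 21.5, 28.7 and 25.3 TPM in Ctrl MO and 29.1, 30.6 and 32.9 TPM in NI Ctrl embryos. Within each frog, every knockdown library was below every control library, injected or not. The Cxxc1 MO mean was 40.3% of the Ctrl MO mean in frog 1 and 40.6% in frog 2, and the Kmt2b MO mean was 27.4 and 34.6% of it.

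On the log2(TPM + 1) scale, not.S changed by −1.16 ± 0.16 with Cxxc1 MO (SE, adjusted p = 0.00025) and −1.51 ± 0.16 with Kmt2b MO (adjusted p = 6.7e-06) relative to Ctrl MO at 6.5 hpf, in limma fits with frog as a covariate and 6 libraries per group. That made 1 of 7 members called lower in each knockdown, against 0.43% of all genes with Cxxc1 MO and 0.788% with Kmt2b MO. Members whose libraries were all lower than Ctrl MO within both frogs were not.S and gsc.L in each knockdown, 2 of 7. Over all genes the share was 1.57% with Cxxc1 MO and 1.08% with Kmt2b MO. Of these members, gsc.L had at most 0.579 TPM in the libraries compared. It passed the filter only through its levels at the last time point, which the choice of members is taken to have used. The count of 2 is therefore no fair comparison with all genes, and only the separation of not.S is read. The entry not.S is itself taken as selected on lower knockdown levels in the same experiments. Its call and its separation may thus not be free of the choice. The opposite separation, every library higher within both frogs, was found for otx2.S with Cxxc1 MO, 1 of 7, and for 0 of 7 with Kmt2b MO, against 0.911 and 1.51% of all genes. Its Cxxc1 MO libraries had 1.37, 1.34 and 1.45 TPM, against 1.19, 0.779 and 0.652 TPM in Ctrl MO embryos of frog 1, and 4.32, 4.03 and 6.92 TPM, against 3.82, 2.56 and 3.58 TPM in those of frog 2. Over all frog 1 libraries otx2.S averaged 1.04 TPM, just over the filter. Its highest group mean there was 2.48 TPM, in Cxxc1 MO embryos at 5.5 hpf. The Cxxc1 MO libraries thus helped otx2.S into the tests, and its count is no fair comparison with all genes. In the fits of 1 frog, with 3 libraries per group, the not.S change was −1.10 (adjusted p = 0.52) with Cxxc1 MO and −1.58 (adjusted p = 0.095) with Kmt2b MO in frog 1, and −1.21 (adjusted p = 0.0097) and −1.44 (adjusted p = 0.0022) in frog 2. No call of not.S was lost by leaving out any 1 of the 12 libraries compared. In the fits of both frogs the sets count as replicates, although they come from only 2 frogs.

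The other tested members did not pass at 6.5 hpf. In Cxxc1 MO embryos the log2 changes were −0.39 ± 0.18 for gsc.L, −0.46 ± 0.27 for gsc.S, −0.41 ± 0.19 for sia1.L, −0.12 ± 0.17 for sia2.S, −0.07 ± 0.06 for not.L and 0.42 ± 0.15 for otx2.S. In Kmt2b MO embryos they were −0.43 ± 0.18, −0.33 ± 0.27, −0.36 ± 0.19, −0.12 ± 0.17, 0.06 ± 0.06 and 0.32 ± 0.15 for the same entries. Adjusted p-values lay between 0.20 and 0.79. Levels of gsc.L were far below the pseudocount in most of these libraries. It was listed at 0 in 11 of 12 knockdown libraries at 6.5 hpf and at 0.216 TPM in the other (Cxxc1 MO, frog 2), while all 6 Ctrl MO libraries had 0.101 to 0.579 TPM. With NI Ctrl in place of Ctrl MO as the control, sia1.L was also called lower in Cxxc1 MO (−0.77, adjusted p = 0.034) and Kmt2b MO embryos (−0.72, adjusted p = 0.040). The gsc.L value in Kmt2b MO embryos also passed (−0.68, adjusted p = 0.031). In NI Ctrl embryos gsc.L averaged 0.102 TPM in frog 1, with 2 of 3 libraries at 0, and 1.37 TPM in frog 2. As gsc.L entered the tests only through its levels at the last time point, nothing is read from its call. The share of all genes called against NI Ctrl was not computed. For sia1.L itself, frog 1 had 4.38, 4.43 and 2.96 TPM with Cxxc1 MO and 2.92, 3.58 and 7.31 TPM with Kmt2b MO, against 5.47, 5.86 and 3.95 TPM in Ctrl MO embryos. Frog 2 had 6.51, 6.26 and 10.2 TPM with Cxxc1 MO and 8.52, 5.82 and 8.06 TPM with Kmt2b MO, against 9.70, 14.8 and 9.55 TPM in Ctrl MO embryos. The groups overlapped in frog 1 for both knockdowns and in frog 2 for Cxxc1 MO. Over the 7 tested members the median log2 change was −0.39 with Cxxc1 MO and −0.33 with Kmt2b MO, beside −0.04 and −0.03 over all genes tested. These medians are the values of gsc.L and gsc.S, respectively. In both frogs for gsc.L and in frog 1 for gsc.S, only levels at the last time point brought the entry into the tests. The choice of members is taken to have used those levels, so the medians are no fair comparison with all genes. The blastula zygotic markers had negative values at 6.5 hpf as well, 14 of 19 with Cxxc1 MO (2 called lower, median −0.23) and 15 of 19 with Kmt2b MO (5 called lower, median −0.29), 0 being called higher. Negative values were thus not particular to organizer genes, and the part of this shift in the members’ values was not tested. The marker set is not only zygotic. Its summed level in Ctrl MO embryos already had a median of 1513.5 TPM at 5.5 hpf, and the authors describe a strong maternal part for its member sox3.

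**Figure D2:**
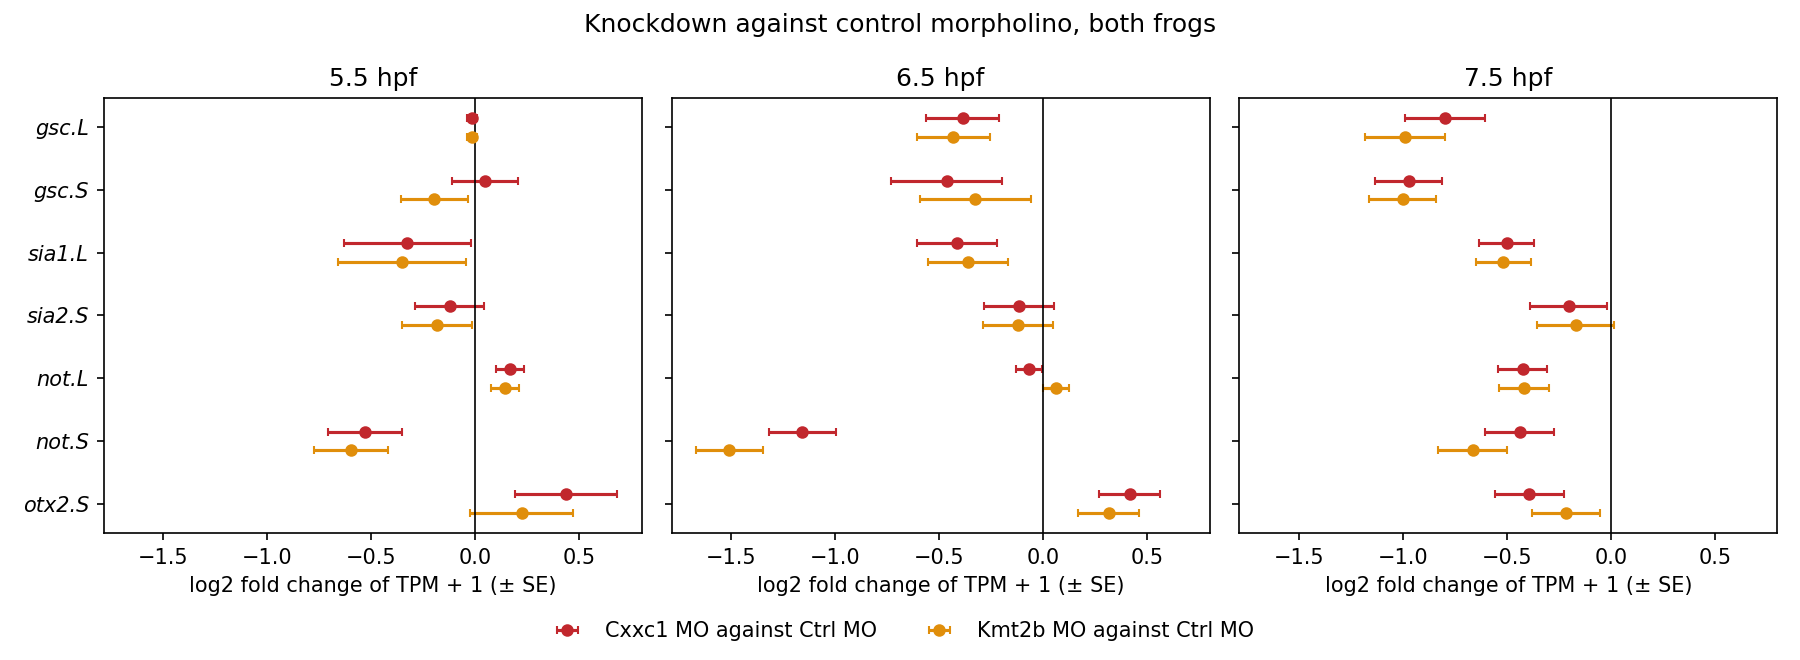
Log2 fold change of TPM + 1 (points, ± SE) in Cxxc1 MO (upper point of each pair) and Kmt2b MO embryos against Ctrl MO for the 7 tested members at each time point. At 6.5 hpf not.S stands at −1.16 and −1.51 while its homeolog not.L lies at −0.07 and 0.06.

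The not homeologs also differed in how their levels changed. In the same libraries at 6.5 hpf, not.L had 34.0 ± 0.391 and 33.2 ± 1.41 TPM with Cxxc1 MO (SD, n = 3 sets each, frogs 1 and 2) and 35.0 ± 3.18 and 39.0 ± 2.44 TPM with Kmt2b MO, against 33.7 ± 1.07 and 36.9 ± 2.94 TPM in Ctrl MO embryos. The log2 ratio of L to S per library was higher than in Ctrl MO by 1.09 with Cxxc1 MO and by 1.57 with Kmt2b MO, with all 6 knockdown libraries on the same side of the Ctrl MO mean of their frog in each case. Both gave p = 0.005 in a two-sided exact permutation test within frogs, the smallest p that its 400 arrangements allow, and p = 0.01 adjusted over the 4 homeolog tests made. For gsc the differences were 0.08 with Cxxc1 MO (exact permutation p = 0.66) and −0.11 with Kmt2b MO (exact permutation p = 0.69). With a pseudocount of 0.1 they were −0.86 (exact permutation p = 0.12) and −1.50 (exact permutation p = 0.015). The outcome for gsc in Kmt2b MO embryos thus depends on the pseudocount, as gsc.L is listed at 0 there. For not, the L copy already stood at 24.4 to 41.4 TPM at 5.5 hpf. Levels do not tell mRNA present by then from mRNA made later, so whether the copies differ in transcription was not tested.

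**Figure D3:**
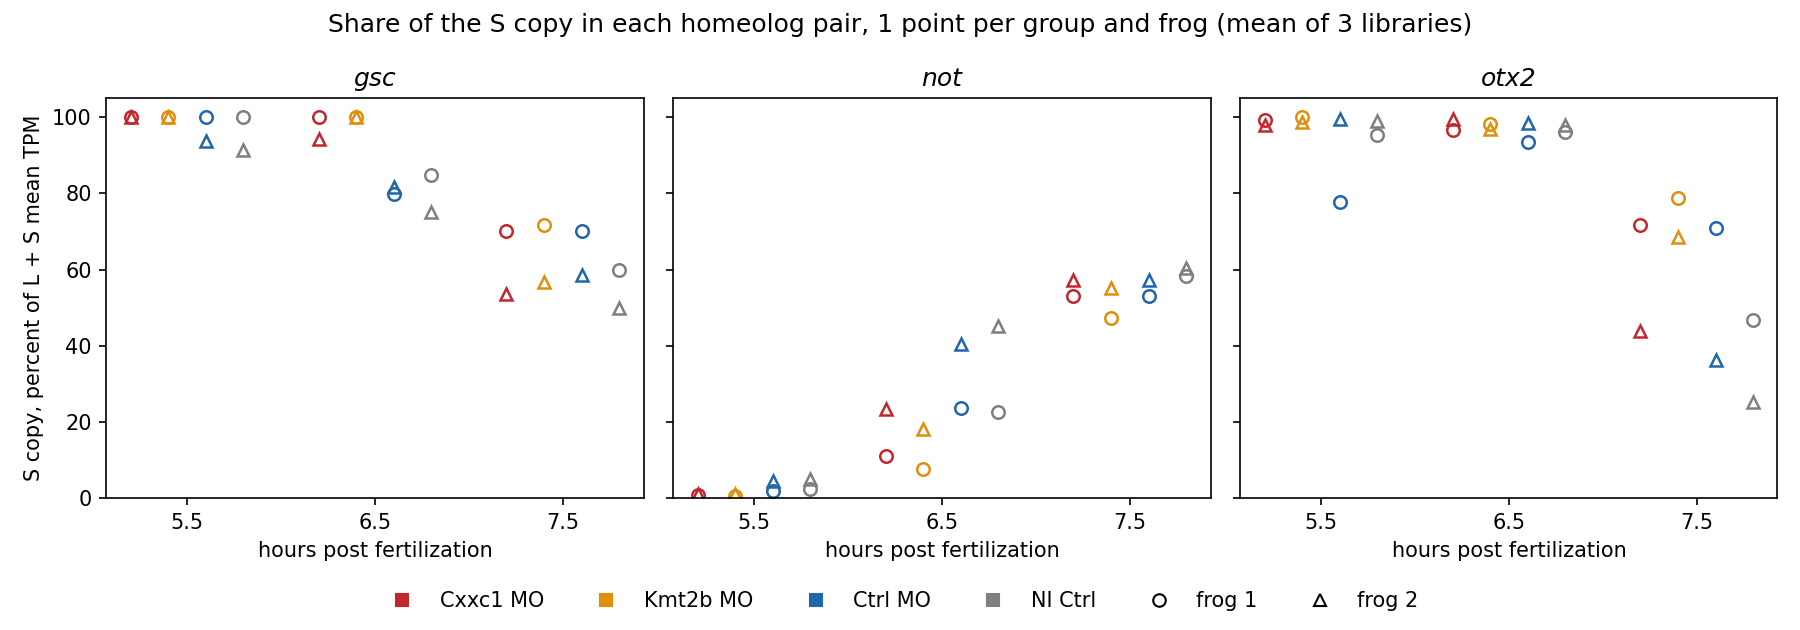
Share of the S copy in the summed mean TPM of gsc, not and otx2 homeologs (percent), by hours post fertilization, group and frog. The S share of not at 6.5 hpf is 7.63 to 23.6% in the knockdowns, against 22.6 to 45.1% in Ctrl MO and NI Ctrl embryos, and the groups lie between 47.3 and 60.5% at 7.5 hpf.

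At 5.5 hpf no member was called in either knockdown with limma. At an unadjusted p under 0.05, not.S was lower and not.L higher in each, and over all genes 0.379% with Cxxc1 MO and 0.711% with Kmt2b MO were called in either direction (1546 and 1358 genes at an unadjusted p under 0.05). In frog 2, not.S had 0.606, 0.431 and 0.482 TPM with Cxxc1 MO and 0.886, 0.483 and 0.110 TPM with Kmt2b MO, against 2.38, 0.919 and 1.68 TPM in Ctrl MO embryos, with no overlap. In frog 1 the groups overlapped, with 0 to 0.742 TPM in the knockdowns and 0.336 to 0.799 TPM in Ctrl MO embryos. The log2 change was −0.53 ± 0.18 with Cxxc1 MO (adjusted p = 0.32) and −0.60 ± 0.18 with Kmt2b MO (adjusted p = 0.20).

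At 7.5 hpf all 7 tested members had lower fitted means in both knockdowns than in Ctrl MO embryos. These are taken as the values on which members were chosen, and they are given without a test. For gsc.S, frog 1 had 4.65, 10.9 and 6.60 TPM with Cxxc1 MO and 5.54, 7.28 and 5.25 TPM with Kmt2b MO, against 10.3, 12.0 and 14.0 TPM in Ctrl MO embryos. Frog 2 had 16.5, 13.5 and 17.7 TPM with Cxxc1 MO and 20.6, 17.9 and 14.7 TPM with Kmt2b MO, against 34.9, 30.0 and 55.8 TPM in Ctrl MO embryos. Only 1 Cxxc1 MO library of frog 1 reached into the Ctrl MO range. The log2 change of gsc.S was −0.97 ± 0.16 with Cxxc1 MO and −1.0 ± 0.16 with Kmt2b MO, and that of gsc.L −0.80 ± 0.19 and −0.99 ± 0.19.

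For sia1.L at 7.5 hpf, frog 1 had 20.5, 23.5 and 16.6 TPM with Cxxc1 MO and 16.3, 19.8 and 18.9 TPM with Kmt2b MO, against 33.3, 27.5 and 23.6 TPM in Ctrl MO embryos. In frog 2 the Cxxc1 MO libraries had 21.5, 17.8 and 27.8 TPM and the Kmt2b MO libraries 19.6, 27.4 and 24.1 TPM, against 26.8, 30.9 and 41.3 TPM in Ctrl MO. The groups did not overlap in frog 1 and overlapped in frog 2. The log2 change was −0.50 ± 0.13 with Cxxc1 MO and −0.52 ± 0.13 with Kmt2b MO. In not.S, frog 1 had 23.6, 42.1 and 32.5 TPM with Cxxc1 MO and 16.9, 29.4 and 18.9 TPM with Kmt2b MO, against 32.0, 39.9 and 46.5 TPM in Ctrl MO embryos. Frog 2 had 38.1, 35.9 and 51.7 TPM with Cxxc1 MO and 39.4, 55.7 and 41.5 TPM with Kmt2b MO, against 53.2, 57.8 and 80.9 TPM in Ctrl MO embryos. At least 1 knockdown library lay within the Ctrl MO range in frog 1 for Cxxc1 MO and in frog 2 for Kmt2b MO. For not.S the log2 change was −0.44 ± 0.16 and −0.67 ± 0.16, for not.L −0.42 ± 0.12 in each, for otx2.S −0.39 and −0.22 (SE 0.16), and for sia2.S −0.20 and −0.17 (SE 0.18). By the threshold used at the other times, 1 of 7 (gsc.S) would pass in Cxxc1 MO and 4 of 7 (gsc.L, gsc.S, sia1.L and not.S) in Kmt2b MO embryos, beside 0.235 and 0.752% of all genes. Since the choice of members is taken to have used these values, the counts are no test and nothing is read from them. Of the blastula zygotic markers, 18 of 19 had negative values in each knockdown at 7.5 hpf. The Kmt2b MO count was 2 when any of 7 libraries was left out (set 1 or 3 of Kmt2b MO in either frog, set 2 of Ctrl MO in either frog, or set 3 of Ctrl MO in frog 2), and the Cxxc1 MO count was 3 without set 2 of Cxxc1 MO in frog 1.

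In frog 2 at 7.5 hpf, the members below the filter had lower means in knockdown than in Ctrl MO embryos. The choice of members is taken to have used this contrast, so nothing is read from these values. The entry otx2.L had 1.29, 1.37 and 1.95 TPM with Cxxc1 MO and 0.354, 1.39 and 0.919 TPM with Kmt2b MO, against 4.83, 2.92 and 5.25 TPM in Ctrl MO embryos. The entry lhx1.L had 1.11, 0.929 and 1.07 TPM with Cxxc1 MO and 0.502, 1.29 and 1.06 TPM with Kmt2b MO, against 1.67, 1.81 and 3.13 TPM in Ctrl MO embryos. For lhx1.S the ranges were 0.897 to 1.53 TPM with Cxxc1 MO and 0.827 to 1.06 TPM with Kmt2b MO, against 1.70 to 2.67 TPM with Ctrl MO. In frog 1 all 3 entries stayed under 0.6 TPM in these 3 groups.

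The knockdowns were also compared with each other. No member was called between Kmt2b MO and Cxxc1 MO embryos at 5.5 or 6.5 hpf. With limma 0% of all genes were called at 5.5, 6.5 and 7.5 hpf, while 737, 597 and 767 genes had an unadjusted p under 0.05. For not.S at 6.5 hpf the difference, Kmt2b MO minus Cxxc1 MO, was −0.35 with a 95% interval of −0.68 to −0.02 (unadjusted p = 0.039, adjusted p = 1), and not.L had 0.13 (0.003 to 0.26, unadjusted p = 0.045, adjusted p = 1). For gsc.S at 7.5 hpf it was −0.03 (−0.36 to 0.31) and for sia1.L −0.02 (−0.29 to 0.26). The intervals at 6.5 hpf give the range of differences that those libraries allow.

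The control morpholino group was also compared with embryos that were not injected. Between Ctrl MO and NI Ctrl embryos 0 of 7 members were called with limma at each time, against 0.0307, 0.0307 and 0.0102% of all genes (1534, 620 and 1384 genes at an unadjusted p under 0.05). At an unadjusted p under 0.05, 1 member differed, gsc.L at 7.5 hpf, with 5.27, 4.21 and 5.89 TPM in Ctrl MO against 7.48, 8.07 and 10.5 TPM in NI Ctrl embryos of frog 1, and 29.1, 21.5 and 34.7 against 34.6, 36.9 and 36.0 TPM in frog 2. Its log2 difference was −0.50 ± 0.19 (adjusted p = 0.67). For not.S at 6.5 hpf the Ctrl MO minus NI Ctrl difference was −0.05, with a 95% interval of −0.38 to 0.29. Every Ctrl MO library of frog 2 was below every NI Ctrl library there, whereas the groups overlapped in frog 1. Values at 6.5 hpf were negative for 6 of 7 members and 16 of 19 blastula zygotic markers (marker median −0.13, beside 0.02 over all genes tested). Of the members, 5 had negative values at 5.5 hpf and 3 at 7.5 hpf. An effect of injection on these sets was not tested.

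Levels also differed between the frogs. At 6.5 hpf the not.S mean of Ctrl MO embryos was 10.6 ± 3.44 TPM in frog 1 and 25.2 ± 3.59 TPM in frog 2 (SD, n = 3 sets each), and at 7.5 hpf the gsc.L mean was 5.12 ± 0.850 TPM in frog 1 and 28.4 ± 6.65 TPM in frog 2. The frogs were separate experiments, so frog and experiment cannot be told apart. The knockdown change at 6.5 hpf was not called as different between the frogs for any member, or for any of the 19544 genes with limma. For not.S the difference of the changes, frog 2 minus frog 1, was −0.12 ± 0.31 with Cxxc1 MO and 0.14 ± 0.31 with Kmt2b MO, and the widest was that of gsc.S in Kmt2b MO embryos (−1.05 ± 0.41, unadjusted p = 0.018, adjusted p = 1).

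Genes with the profiles most like those of the members were found from the 12 means of group and time in each frog, by the lower of the 2 Pearson correlations of log2(TPM + 1) among 13867 named genes. The points share libraries and a common rise with time, so the values are descriptive. For gsc.S the closest were nodal.L (r = 0.995 and 0.996 in frogs 1 and 2) and lefty.L (0.993 and 0.995), a Nodal ligand and a Nodal antagonist, then chrd.2.L, an entry of the BMP antagonist chordin, pnhd.L and the T-box gene eomes.S. For sia1.L they were the ventral homeobox genes ventx2.1.S (0.995 and 0.995) and ventx2.2.S, then foxi4.2.S, nodal3.1.L and the pluripotency factor gene pou5f3.2.S. For not.S they were the chemokine receptor gene cxcr4.L (0.996 and 0.997), ventx2.1.S, gdf3.S, a ligand gene of the TGF-β family, pou5f3.2.S and the mesendodermal homeobox gene bix1.1.S. A correlation over 0.9 in both frogs was reached by 0.959% of these genes for gsc.S, 0.808% for sia1.L and 0.8% for not.S. Among the members, not.S and sia1.L correlated at 0.984 and 0.996, gsc.S and gsc.L at 0.982 and 0.985, and not.S and not.L at only 0.313 and 0.385.

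Genes of pathways that act upstream of the members were described from lists. The Nodal and Vg1 list is not only maternal. In Ctrl MO embryos 12 of its 31 tested entries were called higher from 5.5 to 6.5 hpf, against 8.17% of all genes. Of 21 tested entries of the maternal Wnt and β-catenin pathway, 0 were called with Cxxc1 MO and 1 lower and 1 higher with Kmt2b MO at 6.5 hpf, with median log2 changes of −0.01 and 0.00. The most abundant were ctnnb1.L and ctnnb1.S, which encode β-catenin, and fzd7.L, a Wnt receptor, whose changes at 6.5 hpf lay between −0.08 and −0.02 in both knockdowns. Of 31 entries of the Nodal and Vg1 pathway, 0 were called lower and 1 higher with Cxxc1 MO, and 1 lower and 1 higher with Kmt2b MO, with medians of −0.07 and −0.08. The maternal T-box entries vegt.L and vegt.S changed by between −0.02 and 0.05, and foxh1.L, a Nodal-responsive cofactor, by values that round to 0.00 and 0.01. At 7.5 hpf vegt.L and vegt.S changed by −0.25 and −0.24 with Cxxc1 MO and by −0.36 each with Kmt2b MO, without a call. At that time 3 Nodal and Vg1 entries were called lower and 1 higher with Cxxc1 MO, and 7 lower and 1 higher with Kmt2b MO. Over all genes, 0.235 and 0.752% were called lower. The lists were chosen with earlier results of these data known, so these counts are no fair comparison with all genes.

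Other organizer genes and their ventral opponents had mostly negative values, as the members did. Over all genes tested, 0.43% were called lower with Cxxc1 MO and 0.788% with Kmt2b MO at 6.5 hpf. Of 17 tested entries for other organizer genes, 0 were called lower with Cxxc1 MO and 1 with Kmt2b MO at 6.5 hpf, 14 and 15 had negative values, and the medians were −0.30 and −0.31. Their most abundant entries were otx1.L (0.04 and 0.02), foxa4.L (−0.40 and −0.74, adjusted p = 0.40 and 0.060) and foxa4.S (−0.11 and −0.27). Of 21 entries for ventral and organizer-limiting genes, 1 was called lower with Cxxc1 MO and 5 with Kmt2b MO, 0 higher, with medians of −0.50 and −0.52. The most abundant were the BMP pseudoreceptor entries bambi.S (0.05 and 0.16) and bambi.L (−0.02 and 0.07) and the ventral repressor ventx2.1.S (−0.93, adjusted p = 0.14, and −1.20, adjusted p = 0.022). At 7.5 hpf, 1 of the 17 organizer entries was called lower with Cxxc1 MO and 9 with Kmt2b MO. Of the 21 ventral and organizer-limiting entries, 4 and 12 were called lower, beside 0.235 and 0.752% of all genes. These lists are described by their counts and medians, and no list was compared with the members by a test. The lists were chosen with earlier results of these data known, and entries may have passed the filter only through their levels at 7.5 hpf. The counts and medians are therefore no fair comparison with all genes, and nothing is read from the counts at 7.5 hpf.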

How the data were processed

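Strand-specific, rRNA-depleted libraries were quantified by the authors with kallisto 0.48 against Xenbase 10.1 transcripts, and the deposited values are TPM per gene, isoforms summed, in 1 table per frog. Values were analysed as log2(TPM + 1) for genes averaging at least 1 TPM in each frog, with limma 3.58.1 in R 4.3.3, trended variance and frog as covariate; the authors' DESeq2 test needs counts and was not repeated. The 4 groups of a time point shared 1 fit, as did all 72 libraries for time steps. Depth is unknown. The filter, the pseudocount and the scaling of TPM can change values, most for genes near 0 and across time. The fits were tested on simulated data. Permutation tests and correlations used Python 3.11.15 and numpy 2.4.6. Gene coordinates come from RefSeq for the 10.1 assembly, which matched 38926 names. The members and lists were chosen with earlier results of these data known. Besides all members, the text names the 5 genes most like gsc.S, sia1.L and not.S and the 3 most abundant entries of each of 4 lists; tekt1.L was named after its value was seen. Set numbers did not pair the libraries: same-numbered sets correlated at −0.25 to 0.35, and in 0 of 36 pairs of groups were all 3 above 0.1. Other filters, pseudocounts, scalings, controls, sample sets and single frogs were tried.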

Additional observations from a re-analysis of the deposited data

Results flagged for a closer look

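Of 81 groups of 6 libraries examined over the 7 tested members, 4 held a library whose gap to the rest exceeded Dixon's limit, where chance alone gives about 5%. For gsc.L these were groups at or near 0, with 0.0628 TPM in Ctrl MO (frog 2, set 2) and 0.119 TPM in NI Ctrl (frog 2, set 1) at 5.5 hpf and 0.216 TPM in Cxxc1 MO embryos (frog 2, set 3) at 6.5 hpf, all beside 5 libraries listed at 0. For not.L it was Ctrl MO at 7.5 hpf, where set 3 of frog 2 had 62.8 TPM and the others 33.9 to 40.6 TPM. The same library was also the highest of the 6 for every other member except sia2.S. Beside 5 libraries at 0, any value over 0 exceeds the limit. Each group also pools 2 frogs that can differ in level, so the share of 5% may not apply.

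The levels of the not homeologs changed differently with both knockdowns at 6.5 hpf, not.L having stood at 24.4 to 41.4 TPM at 5.5 hpf. The difference in the log2 ratio of L to S was 1.09 with Cxxc1 MO and 1.57 with Kmt2b MO relative to Ctrl MO (exact permutation p = 0.005 each, 6 of 6 libraries), and lay between 0.99 and 1.18 and between 1.46 and 1.70 when any 1 library was left out.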

How the results depend on the processing

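The lower level of not.S in the knockdowns than in control embryos at 6.5 hpf kept its direction under all alternatives. It kept its call under all but the fits of frog 1 alone. Over the 8 alternatives other than single frogs, and the 12 left-out libraries, the change lay between −1.27 and −1.05 with Cxxc1 MO (largest adjusted p = 0.0017) and between −1.70 and −1.40 with Kmt2b MO (largest adjusted p = 0.0025). Members called at 6.5 hpf numbered 0 in each knockdown for frog 1 alone, and, against NI Ctrl, 2 with Cxxc1 MO and 3 with Kmt2b MO. The share of all genes called was computed for the main fits only. Counts of members under other settings therefore stand without a background and are not read as results about the members. The counts at 7.5 hpf rest on values that the choice of members is taken to have used, and they test nothing. There, the Cxxc1 MO count of 1 became 4 centred on the median gene, 4 with protein-coding TPM rescaled, 0 in either frog alone, 2 with set number as a replicate block, 0 with only the 2 groups compared, 3 against NI Ctrl, and 1 to 3 with a library left out. The Kmt2b MO count of 4 became 2 without the filter, 0 in frog 1, 2 with only the 2 groups compared, 2 in the fit of 72 libraries, and 2 to 4 with a library left out. With the replicate block the counts at 6.5 hpf stayed at 1 in each knockdown. From 5.5 to 6.5 hpf, Kmt2b MO embryos of frog 2 alone gave 5 calls, 4 higher and 1 lower (otx2.S), in place of 3 higher. From 6.5 to 7.5 hpf, a step given without a test, 8 members in place of 5 passed the threshold without the filter in Ctrl MO and in NI Ctrl embryos, since more entries entered. The not.L change in that hour reversed to 0.45 (centred) and 0.24 (protein-coding) with Cxxc1 MO, and to 0.33 and 0.14 with Kmt2b MO, and the sia2.S change in Cxxc1 MO to −0.0206 in frog 2. The gsc homeolog difference became −0.86 with Cxxc1 MO and −1.50 with Kmt2b MO at a pseudocount of 0.1, and lay between −0.0205 and 0.187 and between −0.23 and 0.035 with a library left out. The causes were not tested. TPM gives no depth, so the precision of values near 0 is unknown.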
